A study of Mus musculus with 12 samples.

Results

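The genes of respiratory complex I were examined in the triceps brachii muscle of mice that differed in wheel running and in myostatin. Members were all symbols that start with Nduf and all mitochondrial rows whose name starts with ND, which gave 48 of the 10187 genes in the expression table. They comprised 35 nuclear subunits, 4 assembly factors (Ndufaf1, Ndufaf2, Ndufaf3 and Ndufaf4), 7 subunits encoded by mitochondrial DNA (ND1, ND2, ND3, ND4, ND4L, ND5 and ND6) and 2 genes that carry an Nduf symbol without being counted as subunits today (Ndufa4, now placed with complex IV, and Ndufa4l2, its relative known from hypoxia). Ndufb1, Ndufs5 and Ndufaf5 were not analysed here.

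The polyadenylated RNA of 12 male C57/BL6 mice was sequenced, 3 mice in each of 4 groups. Inactive wild-type mice (IW) and inactive myostatin-reduced mice (IM) stayed in ordinary cages, and active wild-type mice (AW) and active myostatin-reduced mice (AM) were moved at 6 months of age to single cages with a running wheel for 12 weeks. Wheel access and single housing therefore went together and cannot be told apart. Per the paper, the sampled wild-type and myostatin-reduced mice had been matched for their running. The labels do not name matched mice. The myostatin-reduced mice had a floxed exon 3 of Mstn, which was removed in the adult, and the mice of all 4 groups, controls included, had eaten 0.025% tamoxifen in their chow for 6 weeks between 4 and 6 months of age. The promoter that drove the recombinase is not given in the sources used here.

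Complex I is the largest enzyme of the respiratory chain in the inner mitochondrial membrane. It takes electrons from NADH, passes them through flavin and iron-sulphur clusters to ubiquinone, and pumps protons across the membrane. Its subunits come from the nuclear and the mitochondrial genome, the core subunits do the chemistry and the pumping, the accessory subunits surround them, and assembly factors help to build the complex without staying in it. In skeletal muscle, oxidative fibres hold more of it than glycolytic fibres.

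Values were normalized reads: reads counted per gene and scaled so that the trimmed mean was the same in every mouse, not divided by gene length. The summed values ran from 927958 to 1080139.5 per mouse, which correspond to an estimated 9024431 to 12185035 reads, and 3 reads were worth 0.231 to 0.316 normalized reads. Mstn lay between 79.7 and 138 normalized reads in wild-type mice and between 8.7 and 21.6 in myostatin-reduced mice. These values are per gene, so reads over the removed exon and over the other exons cannot be told apart. The mice differed widely in slow-fibre genes. The summed level of 11 of them, Myh7, Myl2 and Tnni1 among these, ran from 94.3 to 1370 normalized reads in IW, 78.3 to 112 in IM, 151 to 1831 in AW and 117 to 1343 in AM, so slow-fibre transcripts differed within groups as well as between them. In bulk muscle, fewer fibres of a type and less RNA per fibre cannot be told apart.

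Among genes of the nuclear genome, the promoter sequences of 36 of the 41 nuclear members were found in RefSeq (GRCm38.p6), each covering 250 bases before and 50 after the start of the gene. The letters AANATGGC, known as the core of sites for the factor YY1, were searched on both strands. They stood in 12 of 31 nuclear subunit promoters (38.7%), against 10.8% of the 7374 genes of the expression table with a promoter and 6.96% of all 27025 genes with one. In 7 of the 31 subunits (22.6%) the letters lay after the start site, against 5.7% of the genes of the expression table. These 7 stretches are shown because the letters contain the ATG at which translation starts: in each of the 7 genes that ATG is the start codon annotated in GENCODE M1. Each is given in the direction of transcription with the letters in capitals, placed on NCBIM37 (mm9).
Ndufc1, chr3:51212837-51212866, minus strand: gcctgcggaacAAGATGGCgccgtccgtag
Ndufa9, chr6:126799115-126799144, minus strand: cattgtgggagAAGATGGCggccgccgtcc
Ndufa3, chr7:3568986-3569015, plus strand: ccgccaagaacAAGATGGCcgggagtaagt
Ndufs7, chr10:79712207-79712236, plus strand: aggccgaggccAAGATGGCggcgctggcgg
Ndufs6, chr13:73465881-73465910, minus strand: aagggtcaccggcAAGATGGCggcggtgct
Ndufs4, chr13:115178253-115178282, minus strand: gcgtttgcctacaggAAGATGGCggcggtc
Ndufb8, chr19:44629883-44629912, minus strand: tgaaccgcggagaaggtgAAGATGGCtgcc
All 7 read AAGATGGC, with the first letter 23 to 39 bases into the transcript. The remaining 5 subunits, Ndufb5, Ndufb10, Ndufa7, Ndufs8 and Ndufb11, held the letters before the start site. Of the other letters searched, the NRF1 palindrome stood in 1 of the 31 subunit promoters (3.23%, against 2.62% of the genes of the expression table), CCGGAAGT (the ETS family) in 1 (3.23%, against 9.48%), AAGGTCA (nuclear receptors) in 2 (6.45%, against 3.8%) and TGACGTCA (CRE) in 3 (9.68%, against 3.8%). A match describes the letters, not a bound site.

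Of the 48 members, 45 had a mean of at least 10 normalized reads and were tested. The other 3 were Ndufab1, the mitochondrial acyl carrier protein (4.85 to 10.9 over the 12 mice), the assembly factor Ndufaf2 (5.77 to 11.1) and Ndufa4l2 (2.39 to 7.32). Per kilobase of transcript, nuclear subunits ranged from 2.4 normalized reads for Ndufab1 to 603 for Ndufb9, and the assembly factors from 11.4 for Ndufaf3 to 27.6 for Ndufaf1. Most nuclear subunits thus stood well above the assembly factors on that scale.

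The activity comparison asked how complex I genes differed between running and inactive mice over both genotypes. With limma, 39 of the 45 tested members were called higher with running (adjusted p-value below 0.05) and none was called lower, where 7.99% of the 7247 genes tested were called higher. Of the nuclear subunits 33 of 34 were called, of the assembly factors 3 of 3, and of the mitochondrially encoded subunits 2 of 7. The median change of the nuclear subunits was 0.32 on the log2 scale and each of the 34 changes lay above 0, while the median over all genes tested was -0.022 and 44.5% of them lay above 0. These log2 changes are differences of log2(value + 1).

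**Figure D1:**
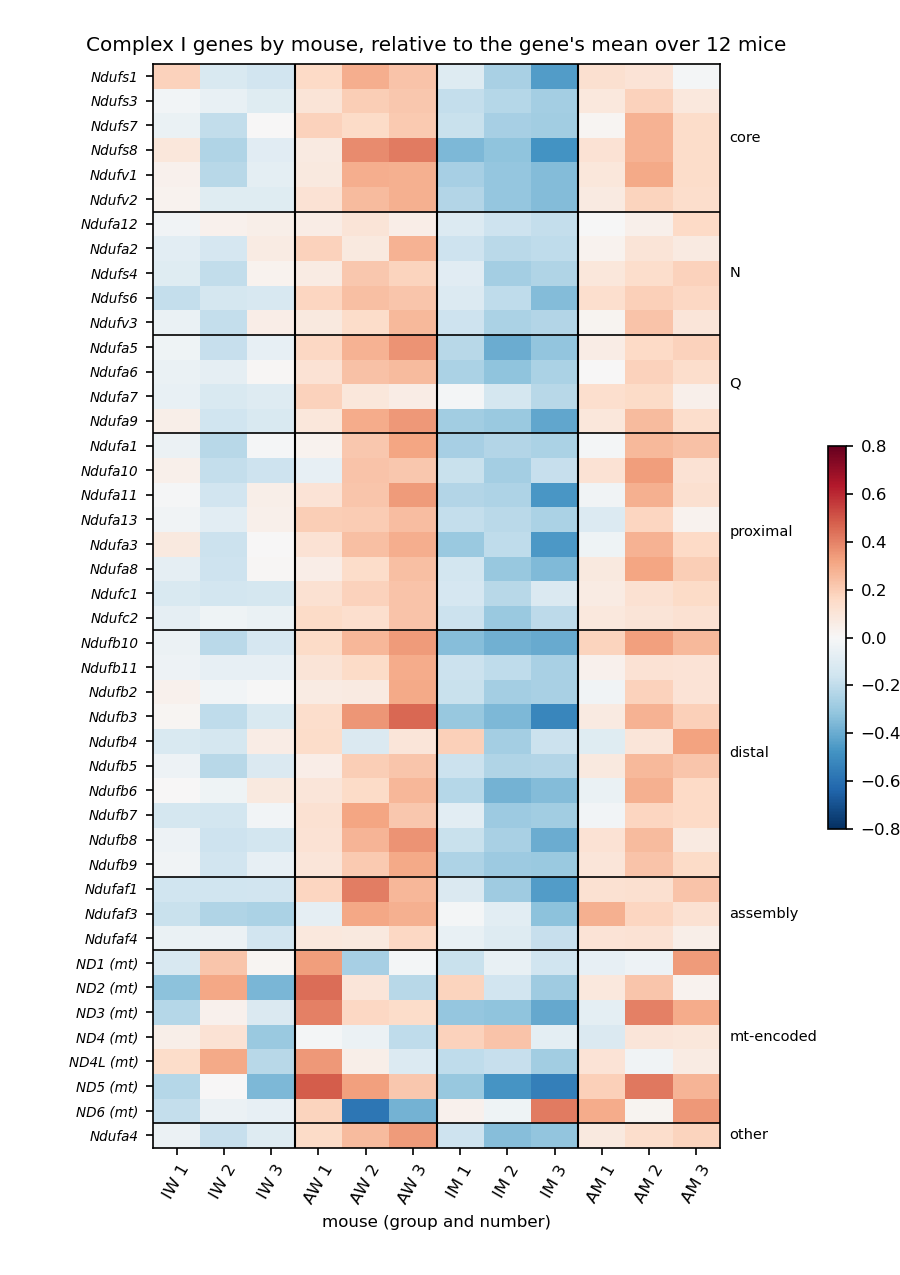
Each row is a complex I gene and each column a mouse. Colour shows log2(value + 1) minus the gene's mean over the 12 mice, red above and blue below it, with rows grouped by role and columns by group. The nuclear rows are red in most active mice and deepest blue in IM, while the mitochondrially encoded rows vary from gene to gene.

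The core nuclear subunits, which bind NADH and carry electrons to ubiquinone, rose in all 7 cases, with a median change of 0.33. Ndufv1 binds NADH and the flavin. It read 371, 311 and 344 normalized reads in IW, 301, 292 and 284 in IM, 384, 443 and 442 in AW and 386, 447 and 402 in AM. Every active mouse was above every inactive mouse, and the change was 0.40 ± 0.060 (SE; adjusted p = 0.0019). Ndufs8, which carries iron-sulphur clusters near the quinone site, had the largest change of these, 0.47 ± 0.073 (adjusted p = 0.00217). Its values were 114, 90.8 and 101 in IW, 83.7, 85.6 and 76.8 in IM, 113, 140 and 144 in AW and 116, 131 and 119 in AM, so AW and IW overlapped while AM and IM did not.

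The changes of other core subunits were smaller than that of Ndufs8. Ndufv2, the partner of Ndufv1, changed by 0.35 ± 0.048 (adjusted p = 0.00178), and Ndufs7, which carries the last cluster before ubiquinone, by 0.33 ± 0.054 (adjusted p = 0.0028). Ndufs3, a structural part of the quinone module, changed by 0.29 ± 0.042 (adjusted p = 0.00179). For Ndufs3, 37.17% of the 65-base words of its transcript also occur elsewhere in the genome, at a copy on chromosome 11. Ndufs1, the subunit with the most iron-sulphur clusters, changed by 0.30 ± 0.072 (adjusted p = 0.0175). It varied within a group, at 561, 453 and 443 normalized reads in the IW mice, and without the second IW mouse its adjusted p was 0.0507.

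The accessory subunits rose in every part of the complex. All 5 of the NADH part (Ndufv3, Ndufs4, Ndufs6, Ndufa2 and Ndufa12) were called, with a median of 0.28, and all 4 of the quinone part (Ndufa5, Ndufa6, Ndufa7 and Ndufa9), with a median of 0.36. In the membrane arm, all 8 of the proximal part (Ndufa1, Ndufa3, Ndufa8, Ndufa10, Ndufa11, Ndufa13, Ndufc1 and Ndufc2) were called, with a median of 0.33, and 9 of the 10 tested in the distal part, also with a median of 0.33. Single nuclear subunits ranged from 0.14 to 0.51.

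The largest nuclear change was that of Ndufb10, a subunit of the distal membrane arm on chromosome 17 (chr17:24859005-24861423, minus strand). It read 241, 214 and 227 normalized reads in IW, 197, 191 and 188 in IM, 277, 300 and 316 in AW and 282, 313 and 298 in AM. The 6 active mice were all above the 6 inactive mice, and the change was 0.51 ± 0.049 (adjusted p = 0.000451). Ndufb3, of the same arm, followed at 0.50 ± 0.068 (adjusted p = 0.00178), from 65.5 ± 5.1 normalized reads in IW and 53.3 ± 4.2 in IM to 88.2 ± 9.9 in AW and 79.8 ± 5.7 in AM (SD, n = 3). Ndufa9, which lies at the joint of the arms of the complex and binds NADPH, changed by 0.41 ± 0.059 (adjusted p = 0.00179). Ndufa5 of the quinone part changed by 0.40 ± 0.052 (adjusted p = 0.00129) and Ndufb8 of the distal arm by 0.40 ± 0.058 (adjusted p = 0.00182). A second annotated gene also carries the symbol Ndufb8 and overlaps it, so the table does not show which of them its reads came from.

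The smallest accessory changes among subunits with a mean of at least 50 normalized reads were those of Ndufa12, Ndufa7 and Ndufb2. Ndufa12 changed by 0.14 ± 0.044 (adjusted p = 0.0491). This call was lost in 11 of the 12 fits that left out a mouse and with the replicate number as a block (adjusted p = 0.0644). Its means were 72.6 ± 2.1 in IW, 64.2 ± 1.9 in IM, 75.5 ± 1.4 in AW and 75.2 ± 4.6 in AM (SD, n = 3), and the differences between active and inactive mice were 0.22 in myostatin-reduced and 0.06 in wild-type mice. Of its 65-base words, 23.9% occur also on chromosome 5. Ndufa7 changed by 0.22 ± 0.048 (adjusted p = 0.011) and Ndufb2 by 0.23 ± 0.055 (adjusted p = 0.015). Ndufb4, at 8.82 to 13.9 normalized reads, was the nuclear subunit that was not called (0.15 ± 0.103; adjusted p = 0.347). It was the lowest of those tested, and 40.35% of its words occur elsewhere in the genome.

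The assembly factors are not part of the finished enzyme. Ndufaf1, which acts on an intermediate of the membrane arm, read 35.8, 35.8 and 36.0 normalized reads in IW, 37.0, 32.7 and 29.2 in IM, 45.3, 53.7 and 48.6 in AW and 43.7, 44.0 and 47.1 in AM. All active mice were above all inactive mice, with a change of 0.44 ± 0.062 (adjusted p = 0.00179). Ndufaf3 and Ndufaf4 work together on the early quinone part. Ndufaf3 changed by 0.37 ± 0.086 (adjusted p = 0.0146) at a low level of 9.37 to 15.2 normalized reads. Ndufaf4 changed by 0.20 ± 0.044 (adjusted p = 0.0109), from 61.4 ± 2.5 in IW and 60.1 ± 2.7 in IM to 70.4 ± 2.4 in AW and 69.4 ± 1.7 in AM (SD, n = 3). Ndufaf2, a relative of Ndufa12 that was too low to test, averaged 6.38 in IW, 6.84 in IM, 7.77 in AW and 8.26 in AM. Among the 9 tested assembly genes without an Nduf symbol, 3 were called higher, Foxred1 (0.42), Aifm1 (0.33) and Tmem70 (0.29), and their median was 0.16.

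**Figure D2:**
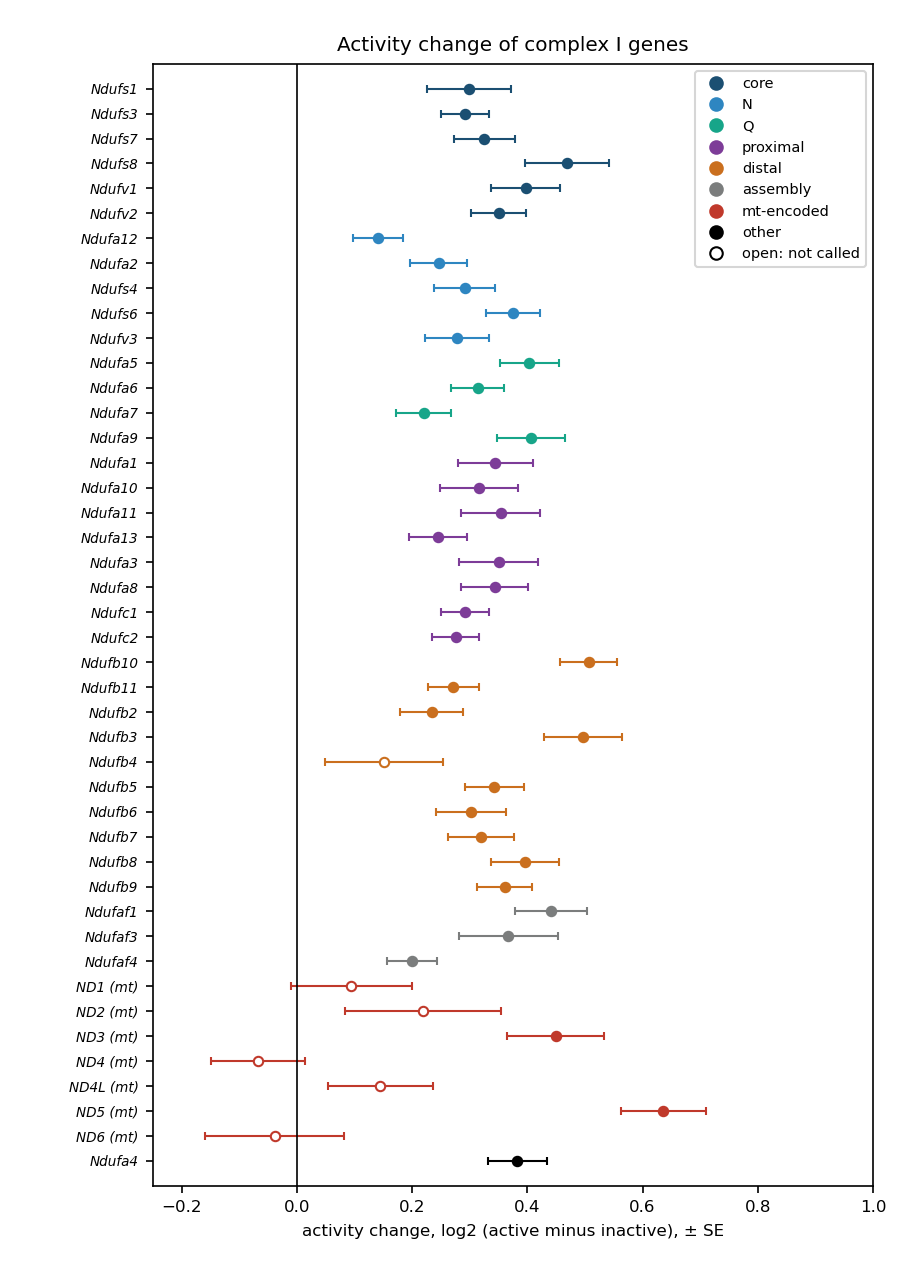
Points show the activity change of tested complex I genes (active minus inactive, log2 scale) and bars its SE, coloured by role. Filled points passed the test (adjusted p-value below 0.05). The nuclear subunits and assembly factors lie to the right of 0, and the mitochondrially encoded subunits spread from -0.07 to 0.64.

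The subunits encoded by mitochondrial DNA moved unevenly, with a median activity change of 0.14. ND5, a proton-pumping subunit at the tip of the membrane arm, had the largest change of any member. It read 370, 434 and 338 normalized reads in IW, 352, 313 and 297 in IM, 607, 545 and 505 in AW and 495, 581 and 523 in AM. No active mouse overlapped an inactive one, and the change was 0.64 ± 0.074 (adjusted p = 0.00113). ND3, at the junction of the membrane arm and the peripheral arm, changed by 0.45 ± 0.084 (adjusted p = 0.0052). It read 1063, 1277 and 1148 in IW, 1006, 997 and 939 in IM, 1651, 1400 and 1379 in AW and 1180, 1650 and 1534 in AM, so the active groups exceeded the inactive group of their own genotype in every mouse, while the lowest AM mouse lay within the range of IW.

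The other 5 were not called. ND2, a pumping subunit, changed by 0.22 ± 0.136 (adjusted p = 0.297), ND4L by 0.14 ± 0.091 (adjusted p = 0.302) and ND1, which forms the quinone channel, by 0.09 ± 0.105 (adjusted p = 0.574). The estimates of ND6 (-0.04 ± 0.120; adjusted p = 0.853) and ND4 (-0.07 ± 0.082; adjusted p = 0.607) lay below 0. ND1 read 1365, 1746 and 1513 normalized reads in IW and 1880, 1242 and 1476 in AW, and spread as far within a group as between groups. These standard errors, up to 0.136, were larger than those of the nuclear subunits, which ran from 0.040 for Ndufc2 to 0.073 for Ndufs8 apart from Ndufb4. Over the 6 mitochondrial genes of other complexes, 0 were called by limma, 1 had an unadjusted p-value under 0.05, and the median change was 0.14. When the mitochondrial values were divided by their own sum in each mouse, the changes of ND5 and ND3 were still called but were 0.39 (adjusted p = 0.00224) and 0.20 (adjusted p = 0.0339). ND4 was then called lower, at -0.31 (adjusted p = 0.0175), and the estimates of ND1, ND2 and ND4L turned negative. The largest terms of the sum were ND1 and ND3, with means of 1507 and 1269 normalized reads, and ND3 rose. The division lowered the mitochondrial changes together, so these signs are relative to the sum and do not show a fall in level.

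**Figure D3:**
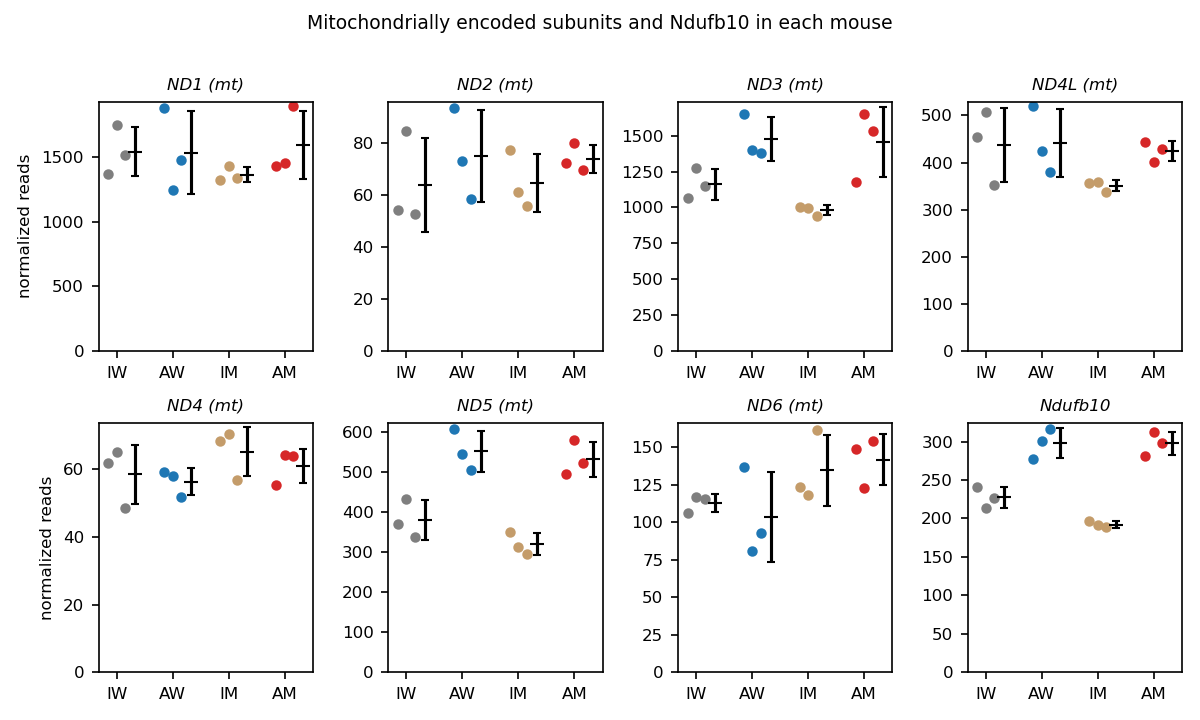
Normalized reads of the 7 mitochondrially encoded subunits and of Ndufb10 in each mouse, by group, with the group mean and SD (n = 3) beside the points. ND5 and Ndufb10 separate all active from all inactive mice, and ND1, ND2, ND3, ND4L, ND4 and ND6 overlap between active and inactive mice.

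The 7 subunits are transcribed from a circular chromosome of 16299 bases as long precursors, all but ND6 from the same strand, and ND6 was the member on the other strand. Their levels per kilobase nevertheless ran from 43.7 normalized reads for ND4 to 3645 for ND3, with 1575 for ND1, 1392 for ND4L, 245 for ND5, 237 for ND6 and 66.9 for ND2. Part of these sequences occurs a second time in the nuclear genome. Of the 65-base words, the length of the reads, 98.94% of those of ND3, every word of ND4L and 61.8% of those of ND4 are found on chromosome 1 of NCBIM37 too, against 6.67% of ND2 and 3.12% of ND5 (on other chromosomes) and none of ND1 or ND6. The sequence of ND3 shows the copy: the following 65 bases stand at chrM:9462-9526 and, without a mismatch, at chr1:24619891-24619955 on the minus strand. The first 65 bases of ND5, in contrast, were found at chrM:11742-11806 alone.
ND3: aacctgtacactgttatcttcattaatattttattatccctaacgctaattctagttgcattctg
ND5: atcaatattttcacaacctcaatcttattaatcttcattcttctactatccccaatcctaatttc
The authors mapped reads of mitochondrial genes apart from the others. The rule for reads that match both copies is not given in the sources used here. ND4L, with 0 words found only in its gene, averaged 414 normalized reads, so at least some such reads were counted. The levels of ND3, ND4L and ND4 are uncertain because the rule is not known. Levels per kilobase also differed widely between ND1 and ND2, which share no or few words with the nuclear genome, and the cause was not tested. Of shorter words of 32 bases, 16.34% of those of ND5 and 6.35% of those of ND6 are found elsewhere, and none of ND1.

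Active and inactive mice were also compared within each genotype. In wild-type mice, 30 of the 34 tested nuclear subunits had all AW mice above all IW mice, where 9.09% of all genes tested did, and the ratio of group means ran from 1.04 for Ndufa12 to 1.35 for Ndufb3 with a median of 1.19 over all 35. None of the 45 members was called by limma in this comparison, in which 0.0276% of the genes tested (2 genes) were called, while 35 members had an unadjusted p-value under 0.05 (14.7% of the genes tested) and the smallest adjusted p-value among members was 0.0611. Without the first AW mouse, the lowest of its group in nuclear subunits, 18 members were called, while the share over all genes tested rose to 2.73%. In myostatin-reduced mice, 33 of 34 nuclear subunits had all AM mice above all IM mice (14.5% of all genes tested), and the ratio of means ran from 1.15 for Ndufb4 to 1.55 for Ndufb10 with a median of 1.31. Here 34 members were called higher, where 5.31% of the genes tested were: 30 nuclear subunits, Ndufaf1, ND3, ND5 and Ndufa4. That count fell to 18 without the second IM mouse, 15 without the third IM mouse and 13 without the second AM mouse. Over all genes tested, calls in either direction fell as well, from 7.84% to 1.96%, 1.63% and 1.17% in the same order. The call of ND3 was lost in 5 of the 12 fits that left out a mouse (adjusted p from 0.0505 to 0.0929 in those), and that of ND5 in 0. With mitochondrial values divided by their own sum, ND3 was no longer called between AM and IM (0.20; adjusted p = 0.137). ND4 was called lower relative to that sum (-0.44; adjusted p = 0.0289).

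For single members, Ndufb10 differed by 0.63 ± 0.070 between AM and IM (adjusted p = 0.00287) and by 0.39 ± 0.070 between AW and IW (adjusted p = 0.0611). ND5 differed by 0.73 ± 0.105 (adjusted p = 0.00813) and 0.54 ± 0.105 (adjusted p = 0.0611) in the same order. The difference between these differences is the interaction, and it was called for 0 of the 45 members and 0 of all 7247 genes, with 2 members (Ndufb10 and Ndufb6) and 297 genes (4.1%) at an unadjusted p-value under 0.05. The estimates leaned one way: 33 of 34 nuclear subunits had a larger change in myostatin-reduced mice, with a median difference of 0.12, where 48.7% of all genes tested did. The largest was that of Ndufb6 in the distal arm, 0.29 ± 0.12 (adjusted p = 0.89). Over both genotypes, 18 of 34 nuclear subunits had every active mouse above every inactive mouse, and so had Ndufaf1, Ndufaf4, ND5 and Ndufa4, which made 22 of 45 members against 3.09% of all genes tested.

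The genotype comparison asked how myostatin-reduced mice differed from wild-type mice at the same activity. Over both activity levels, 1 of the 45 members was called and it was lower, where 2.21% of the genes tested were called lower, so the share of members called was at the background. That member was Ndufa13, a membrane-arm subunit also known as GRIM-19. It read 188, 180 and 197 normalized reads in IW, 167, 165 and 160 in IM, 219, 221 and 227 in AW, and 177, 215 and 195 in AM. Each myostatin-reduced group lay below the wild-type group of the same activity without overlap, and the change was -0.19 ± 0.051 (adjusted p = 0.045). The call was lost in 10 of the 12 fits that left out a mouse and with the replicate number as a block (adjusted p = 0.0618). Without the first AW mouse 8 members were called, where 7.99% of all genes tested were called in either direction, and without the second AM mouse 3 were, where 6.46% of all genes were.

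Of the 34 nuclear subunits, 33 had a genotype change below 0, where 3750 of all 7247 genes tested did. The median of the 34 was -0.12, against -0.0049 over all genes tested, and the lowest was -0.22 for Ndufb3 (adjusted p = 0.0858). IM had the lowest mean of the 4 groups in all 35 nuclear subunits, and AW had the highest mean in 31 of them and AM in 4. The order of group means was not counted over all genes. All IM mice lay below all IW mice in 22 of 34 nuclear subunits (12.7% of all genes tested), and all AM mice below all AW mice in 3, Ndufs1, Ndufc2 and Ndufa13 (7.47% of all genes tested). The median ratio of group means was 0.875 for IM to IW and 0.958 for AM to AW. Neither of these comparisons had a member called by limma, at 2.51% and 0.207% of the genes tested called either way, and 24 and 2 members had an unadjusted p-value under 0.05 (17.4% and 12.3% of the genes tested).

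ND6 had the highest genotype estimate of the members but was not called. It read 106, 117 and 115 normalized reads in IW, 124, 118 and 162 in IM, 137, 80.6 and 92.8 in AW and 149, 123 and 154 in AM. All IM mice were above all IW mice, the active groups overlapped, and the genotype change was 0.36 ± 0.120 (adjusted p = 0.103), opposite in sign to that of 40 of the 45 members. It passed the threshold without the first AW mouse (0.47; adjusted p = 0.0126) and with array weights (0.39; adjusted p = 0.0387). With mitochondrial genes divided by their own sum it passed too (0.43; adjusted p = 0.033). It did not pass without the second AW mouse, at 0.28 (adjusted p = 0.209), or without the third IM mouse, at 0.29 (adjusted p = 0.229). With the slow-fibre covariate it was 0.23 (adjusted p = 0.229). The strand used in counting is not stated, so reads of ND6 and of transcripts from the opposite strand cannot be told apart. The AW mice numbered 2 and 3 were the lowest of all 12 in ND6 and the highest in slow-fibre genes.

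**Figure D4:**
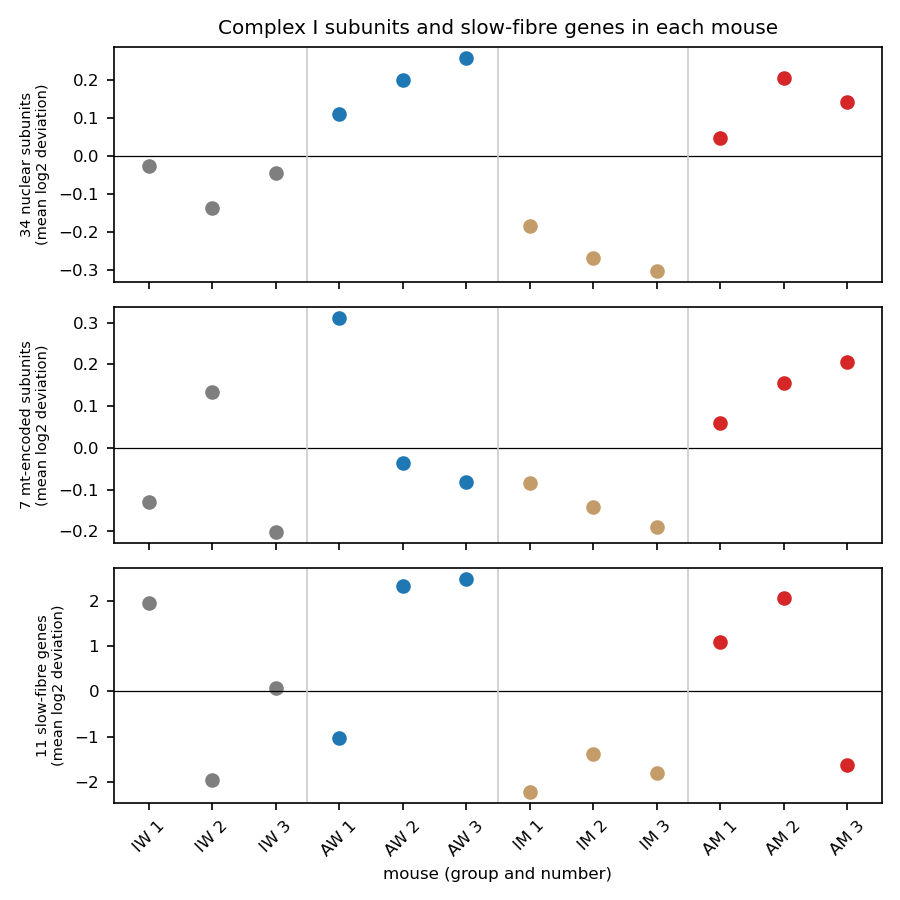
For each mouse, the mean over genes of log2(value + 1) minus the gene's mean over the 12 mice, for 34 nuclear subunits (top), 7 mitochondrially encoded subunits (middle) and 11 slow-fibre genes (bottom). The active mice lie above 0 and the inactive mice below 0 in nuclear subunits. In the mitochondrially encoded subunits and the slow-fibre genes, some active mice lie within the range of the inactive mice.

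Nuclear and mitochondrial members were set beside each other in each mouse as the mean deviation from the gene means on the log2 scale. For nuclear subunits it was -0.03, -0.14 and -0.04 in IW, -0.18, -0.27 and -0.30 in IM, 0.11, 0.20 and 0.26 in AW and 0.05, 0.21 and 0.14 in AM. The 6 active mice were above the 6 inactive mice. For mitochondrially encoded subunits it was -0.13, 0.13 and -0.20 in IW, -0.08, -0.14 and -0.19 in IM, 0.31, -0.04 and -0.08 in AW and 0.06, 0.16 and 0.21 in AM. The first AW mouse was the lowest of its group in nuclear subunits and the highest of all mice in mitochondrial ones, and the second IW mouse was the lowest of its group in the former and the highest in the latter.

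Slow-fibre genes moved with some of these values. Their mean deviation was 1.96, -1.96 and 0.09 in IW, -2.23, -1.39 and -1.79 in IM, -1.02, 2.33 and 2.49 in AW and 1.09, 2.06 and -1.63 in AM. In 4 of 4 groups the mouse highest in mitochondrially encoded subunits was the lowest in slow-fibre genes, while the mouse highest in nuclear subunits was also the highest in slow-fibre genes in 3 of 4 groups, and the lowest was the lowest in 2 of 4. With the slow-fibre deviation as a covariate, 34 of the 39 activity calls remained, and those of Ndufs1, Ndufb2, Ndufa12, Ndufaf3 and Ndufaf4 were lost. The change of Ndufs1 was then 0.22 (adjusted p = 0.103) and that of Ndufa12 0.17 (adjusted p = 0.0654), above its value without the covariate. Of the 34 calls between AM and IM, 22 remained. Over all genes tested, activity calls went from 14.5% to 5.53% in the same fit, and calls between AM and IM from 7.84% to 2.58%. Of the slow-fibre genes themselves, 1 of 11 was called higher with activity (Casq2, 1.34; adjusted p = 0.00306), and their median change was 1.80.

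Other lists moved as well. Of 10 endothelial genes 7 were called higher with activity, with a median of 0.48, and their summed level ran from 347 to 473 normalized reads in IW, 319 to 351 in IM, 355 to 600 in AW and 419 to 693 in AM. Of the fast-fibre genes Myh1 (1.51) and Myh2 (2.04) rose and Myh4 (-0.57), Actn3 (-0.49), Atp2a1 (-0.30) and Casq1 (-0.36) fell. The slow-fibre covariate holds none of these genes, so the fit with it did not adjust for them directly. Fabp4 rose among the 2 fat-cell genes tested, and 0 of 6 fibroblast genes (3 at an unadjusted p-value under 0.05), 0 of 2 macrophage genes and 0 of 2 satellite-cell and nerve genes (0 each) were called. The 1 red blood cell gene in the table, of 5 listed, stayed between 2.11 and 7.19 normalized reads. The part of these cell types in the complex I changes was not tested.

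The rest of the oxidative system was read beside complex I. Called higher with activity were 5 of 6 genes of complex II and its assembly (median 0.29), 9 of 10 nuclear genes of complex III and its assembly (0.36), 11 of 11 nuclear subunits of complex IV (0.43) and 13 of 13 of ATP synthase (0.39), beside the 33 of 34 nuclear subunits of complex I (0.32), which hold no assembly factor. The genes not called in the first pair of lists were the assembly factors Sdhaf1 (0.06; adjusted p = 0.607) and Bcs1l (0.16; adjusted p = 0.0864). Ndufa4 rose by 0.38 ± 0.051 (adjusted p = 0.00163). Of 7 other enzymes that handle NADH or feed electrons to the quinone pool, 4 were called higher and 1 lower. Nnt, the transhydrogenase between NADH and NADPH, rose by 1.03 ± 0.216 (adjusted p = 0.00943). Etfa, Etfb and Etfdh, which pass electrons from fat oxidation to ubiquinone, rose by 0.58, 0.56 and 0.53, and Gpd2, the mitochondrial glycerol phosphate dehydrogenase, fell by 0.36. Dhodh, at 0.24 (adjusted p = 0.0544), and Sqrdl, at -0.02 (adjusted p = 0.858), were not called. Of 16 tested regulators of respiratory genes and mitochondrial DNA, the estrogen-related receptor genes Esrra (0.36; adjusted p = 0.0029) and Esrrg (0.83; adjusted p = 0.0293) rose and the coactivator gene Pprc1 fell by 0.25 (adjusted p = 0.0185). Ppargc1a (0.16; adjusted p = 0.276), Nrf1 (0.12; adjusted p = 0.266), Yy1 (-0.13; adjusted p = 0.0727) and Tfam (-0.01; adjusted p = 0.907) did not pass the test.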

How the data were processed

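Per the sources, the authors sequenced 65-base single-end reads on a Genome Analyzer IIx, processed them with CASAVA (submitters' processing notes), mapped them to mm9 and counted reads over RefSeq exons. The deposited signal values are gene read numbers that the authors scaled to equal trimmed means (5th percentiles excluded). Reads on mitochondrial genes were counted apart and scaled to the same mean. The strand used in counting is not stated, so reads of a gene and an overlapping antisense gene cannot be told apart. Whole reads could not be recovered: 88.9 to 91.49% of values under 5, but 47.85 to 61.46% of values from 20 to 50, were whole multiples of a mouse's step (tolerance 0.006; 11.4 to 15.6% by chance). Counting depth therefore rests on estimates, and no count model was run. Genes with a mean of at least 10 were tested on log2(value + 1) with limma 3.58.1 (R 4.3.3; trended empirical Bayes, 1 mean per group, all 12 mice), Benjamini-Hochberg adjustment over 7247 genes and a threshold of 0.05, after tests on simulated data. The study's own Cuffdiff run needs reads, which were not used here.

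Replicate numbers came from the labels, each a separate mouse. Deviations of same-numbered mice had a mean r from -0.274 to 0.243 over 6 pairs of groups. All 3 pairs of IM and AM were above 0.1, and in none of the other 5 pairs of groups did all 3 exceed 0.1. The main tests used no block. Core, mitochondrial and assembly members (1 core subunit, counted in the totals, is not reported here), the accessory subunits with the 5 largest and 3 smallest activity changes, and members called in genotype are given with full statistics. Genes of other lists are given by counts, medians or, for some genes, single values. Members, lists and tests were chosen with earlier results of these data known. The 65-base words of each transcript (GENCODE M1) were searched in NCBIM37. Alternatives were other pseudocounts, filters and scalings, array weights, a replicate block, a slow-fibre covariate, mitochondrial genes scaled by their own sum, and leaving out each mouse.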

Additional observations from a re-analysis of the deposited data

How the results depend on the processing

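Of the 45 members tested, 39 were called with activity, and 37 to 39 over the fits that left out a mouse (7.62% to 20.5% of all genes). With the slow-fibre covariate 35 were called, 34 of them among the 39. With mitochondrial genes divided by their own sum 40 were called, the added one being ND4, which was lower relative to that sum (-0.31; adjusted p = 0.0175). The genotype count of 1 member became 0 without a filter on low values, with quantile normalization, with the slow-fibre covariate and with the replicate block, 2 with mitochondrial genes divided by their own sum, 4 at a mean of at least 50, 6 with array weights (5.81%, 10.6% and 8.39% of all genes tested were called in these 3), and 0 to 8 without a mouse. AW against IW (0 members) gave 6 at a mean of at least 50, 25 with array weights, 3 with the slow-fibre covariate (1.53%, 5.73% and 0.386% of all genes), and 0 to 18 without a mouse, the 18 without the first AW mouse. AM against IM (34 members) gave 13 to 36 without a mouse. Its 30 nuclear subunits became 18 with the slow-fibre covariate (2.58% of all genes called) and 11 to 32 without a mouse (1.17% to 15.2% of all genes). IM against IW (0 members) gave 2 at a mean of at least 50, 3 with array weights and 1 from the 6 mice alone (5.75%, 4.61% and 2.95% of all genes). Leaving out a mouse gave 0 to 1. The 1 came without the first or the second AM mouse, where 2.69% and 2.84% of all genes were called. The 3 assembly factors called with activity became 1 at a mean of at least 50, where 1 was tested, and 1 with the slow-fibre covariate. No member was called in the interaction or in AM against AW under any setting tried. The replicate block gave 38 activity calls (Ndufa12 lost) and kept 33 of the 34 of AM against IM. Deviations of same-numbered mice correlated at 0.236, 0.171 and 0.322 in IM and AM, and did not all exceed 0.1 in any other pair of groups.

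Signs changed in 7 activity and 21 genotype estimates over all settings. With mitochondrial genes divided by their own sum, the activity changes of ND1, ND2 and ND4L were -0.155, -0.0273 and -0.104, and the genotype change of ND1 was 0.0201. With the slow-fibre covariate, the activity change of ND6 was 0.14 and the genotype changes of Ndufa10, Ndufb5, Ndufb4 and ND2 were 0.0561, 0.0061, -0.0359 and -0.104. Array weights put the genotype change of Ndufa7 at 0.0081. Without a mouse, the activity change of ND6 ran from -0.148 to 0.0412, and genotype changes ran from -0.0704 to 0.0138 for Ndufa10, -0.0106 to 0.0969 for Ndufaf3, -0.044 to 0.0764 for Ndufb4, -0.0433 to 0.0084 for Ndufa7, -0.125 to 0.0244 for ND1 and -0.0599 to 0.132 for ND2. The causes were not tested. Depth limits what can be said of Ndufab1, Ndufaf2 and Ndufa4l2, and of Ndufb4 among those tested.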
